A study of Homo sapiens with 3 samples.

Results

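The levels of 59 genes of human chromosome 8 were compared by chromosome arm in RNA-seq libraries of the oral cancer cell line CAL27 and of its derivatives CAL27/5FU and CAL27/OXA. The members are 33 genes of the short arm (8p), from CLN8 to ADAM9, and 26 genes of the long arm (8q), from PRKDC to HSF1. They were chosen from the 645 chromosome 8 genes of a count table of 19220 genes, on the basis of measured ratios between these same libraries. Their ratios are therefore given as a description, and no test was made on them. CAL27 is an established line of human oral squamous cell carcinoma (OSCC), labelled WT and kept without drug. CAL27/5FU cells were kept in 10 μM 5FU (5-fluorouracil, an analogue of uracil that blocks thymidylate synthesis). They had been selected over many months in rising concentrations of the drug, per the study's methods. CAL27/OXA cells were kept in 10 μM OXA (oxaliplatin, a platinum drug that crosslinks DNA), and the making of this line is not described in the sources used here. The growth medium, high-glucose DMEM with serum, was common to the 3 lines. Whether either derivative is 1 clone was not stated.

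Genes that lie side by side on a chromosome arm are gained or lost together when a tumour cell changes the number of copies of that arm, and RNA levels of many genes then move with the copies. Gain of 8q, the arm that carries MYC, and loss of 8p are known as frequent events in squamous carcinomas of the head and neck. DNA was not measured in the tables used here, so every shift below is one of RNA, and the part that copy number had in it was not tested. In bulk RNA of this kind, a lower level in every cell and a lower share of cells with the gene cannot be told apart. No sequence of chromosome 8 is shown.

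Each line had 1 library with a sample label, and the CAL27 library held 41786182 counts, that of CAL27/5FU 37297713 and that of CAL27/OXA 43455488. Both derivatives were compared with the same CAL27 library, so the ratios of the derivatives share its error. Further columns numbered 2, which match no sample label and may be second libraries of the lines, were not used, so the ratios were not checked against replicates and carry no p-value. A gene was counted as higher or lower when its scaled counts differed by more than 1.5-fold (0.58 on the log2 scale), and each ratio carries an exact 95% Clopper-Pearson interval of the pair of counts, which covers counting error only. Of 19220 genes, 13676 had a mean of at least 10 counts and were tested, among them 458 of chromosome 8 and all 59 members. The 6 epithelial markers (KRT5, KRT14, KRT6A, TP63, EPCAM and CDH1) had at least 948 counts in every library, though 3 of them had lower counts in both derivatives. KRT5 had 286124 counts in CAL27 against 46083 in CAL27/5FU and 72716 in CAL27/OXA, KRT14 had 58222 against 948 and 8423, and KRT6A had 36872 against 6617 and 3403. TP63 was lower in CAL27/5FU only, with 23645 counts in CAL27 against 9759 in CAL27/5FU and 29498 in CAL27/OXA. Of 6 markers of other cell types, PTPRC, CD3E, PECAM1 and DCN had at most 13 counts in any library, COL1A2 had 90 to 300 and COL1A1 had 1050 to 1387.

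The 8q members were lower in both derivatives, and the 8p members were at or somewhat above their CAL27 level. The median log2 ratio of the 26 8q members was -0.75 in CAL27/5FU and -0.87 in CAL27/OXA, against 0.29 and 0.38 for the 33 8p members. The gap between the arms, 8q minus 8p, was -1.04 in CAL27/5FU and -1.25 in CAL27/OXA, which is 2.06-fold and 2.38-fold. In CAL27/5FU, 25 of 26 8q members lay below the median of the 8p members, and in CAL27/OXA all 26 did. The gap does not depend on how the libraries are scaled, since a scale factor shifts both arms alike. The members were picked for this contrast, so these values show its size and do not support it.

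In CAL27/5FU, 15 of 26 8q members were lower and 1 was higher, and 1 of 33 8p members was lower and 7 were higher. Of all tested genes, 14.0% were lower and 15.2% were higher in this comparison. In CAL27/OXA, 21 of 26 8q members were lower and none was higher, and 4 of 33 8p members were lower and 11 were higher. The shares over all tested genes were 17.0% lower and 14.1% higher. Between the derivatives, CAL27/OXA against CAL27/5FU, 7 of 26 8q members were lower and none was higher, and among 8p members 3 were lower and 3 were higher. Here 15.1% of all tested genes were lower and 10.2% were higher. The counting interval lay wholly below 0 for 20 of 26 8q members in CAL27/5FU and for 25 in CAL27/OXA, so at this depth the counts themselves limited few of these ratios.

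**Figure D1:**
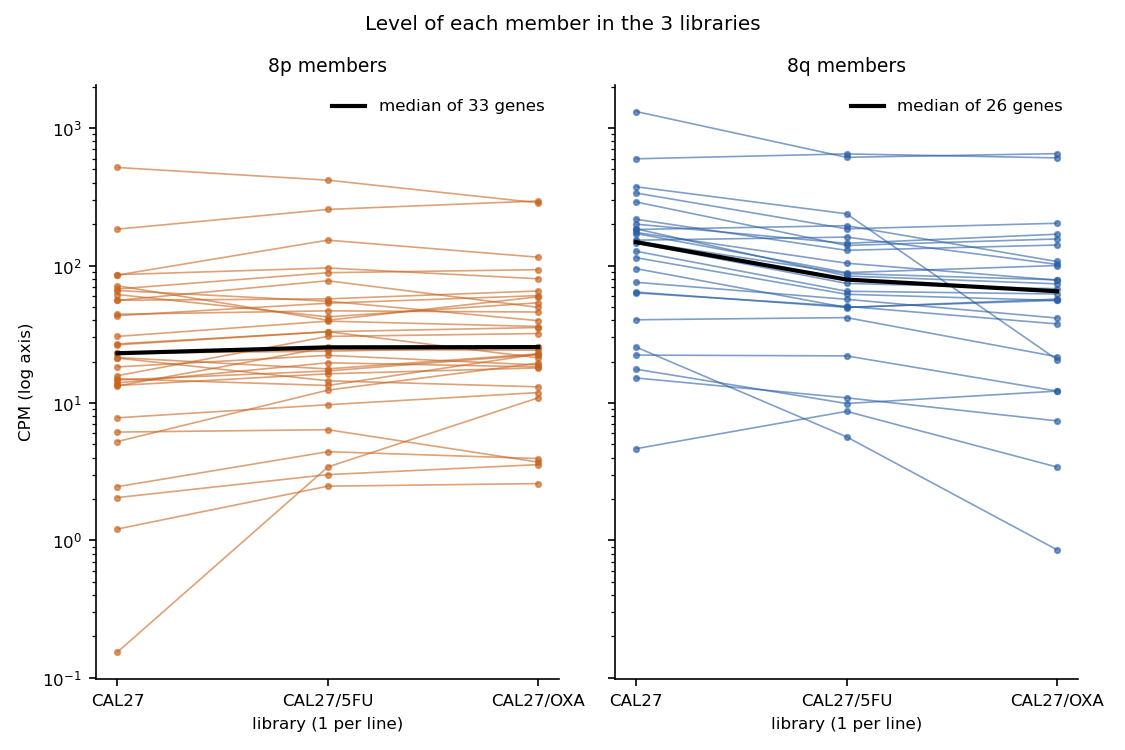
Level of every member in the 3 libraries, in counts scaled to library size (CPM, counts in every 1000000, log axis), with 1 line per gene and the median in black. The median 8q member goes from 148 CPM in CAL27 to 79.1 in CAL27/5FU and 65 in CAL27/OXA, while the median 8p member stands at 23, 25.4 and 25.5 CPM.

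Per length (FPKM, counts divided by gene length and by library total), the 8q members were the more abundant genes. Their median level in CAL27 was 40 FPKM, with a range of 1.44 to 408, and that of the 8p members was 6.92 FPKM, with a range of 0.024 to 125. Over all tested genes the median was 8.54 FPKM. In CAL27/5FU and CAL27/OXA the median of the 8q members was 27.9 and 19.2 FPKM. The 26 8q members took 0.481% of all counts in CAL27 against 0.349% in CAL27/5FU and 0.299% in CAL27/OXA.

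**Figure D2:**
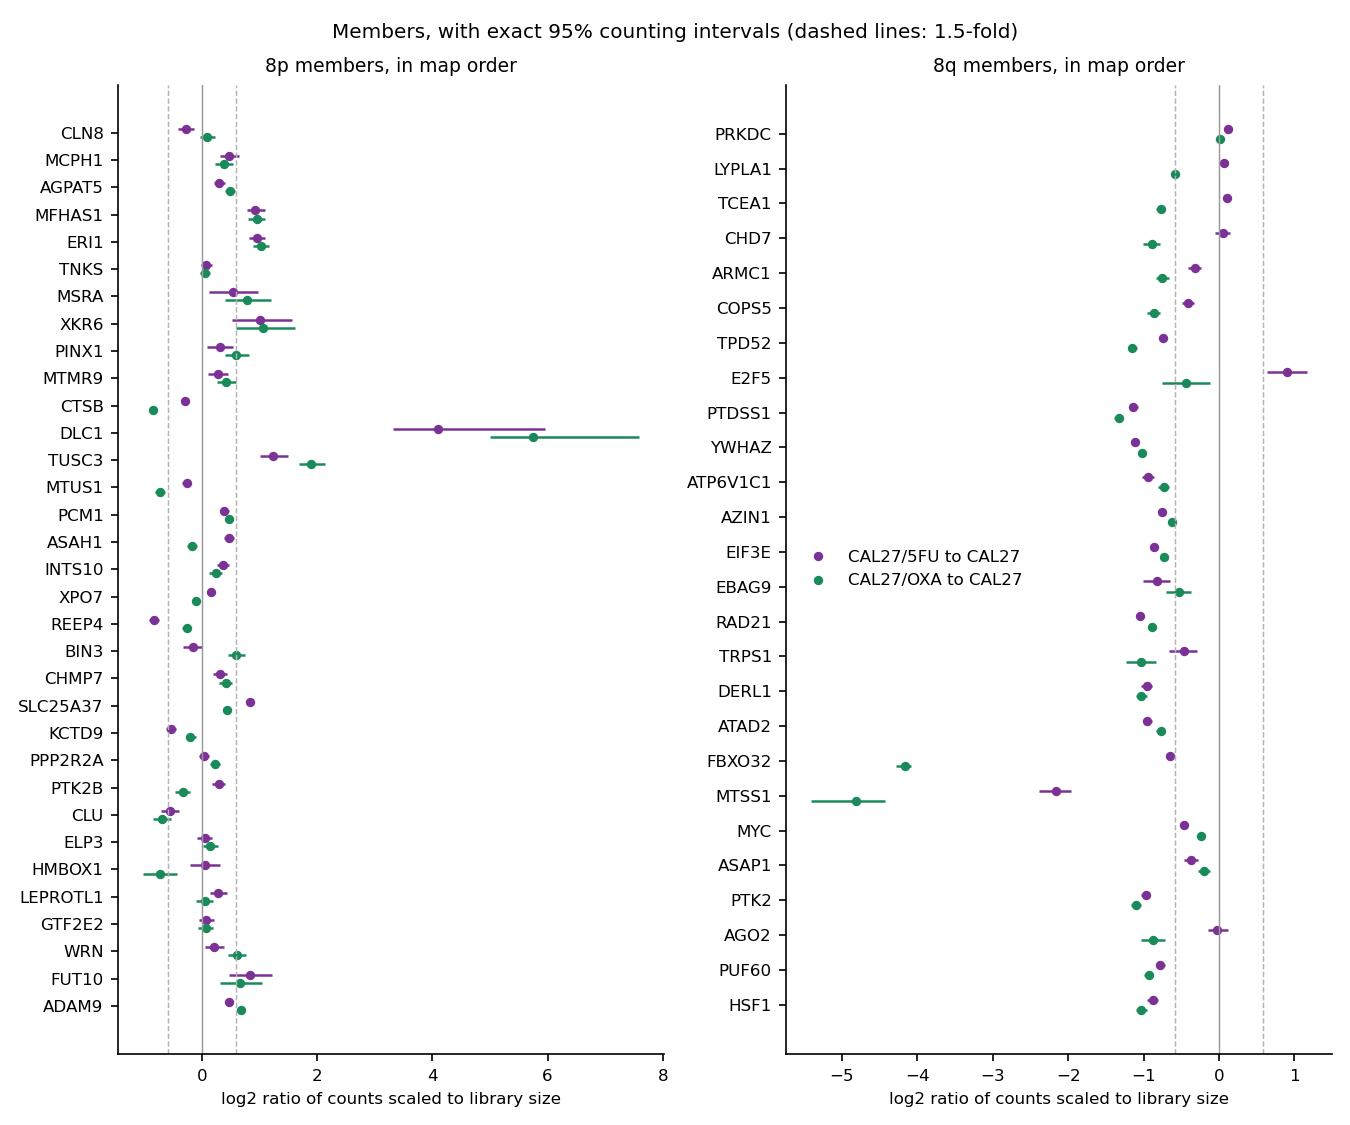
Log2 ratio to CAL27 of each member, 8p on the left and 8q on the right, with exact 95% counting intervals as bars and 1.5-fold as dashed lines. Members are in listed order, called map order in the panel titles, from which a few neighbouring pairs such as XKR6 and PINX1 depart. The 8q points from PTDSS1 down the axis have medians of -0.87 in CAL27/5FU and -0.91 in CAL27/OXA. Their quartiles are -0.97 and -0.68 in CAL27/5FU and -1.03 and -0.73 in CAL27/OXA, and they reach from -2.16 to -0.02 and from -4.82 to -0.2. LYPLA1 to COPS5 lie between -0.89 and -0.59 in CAL27/OXA and between -0.41 and 0.1 in CAL27/5FU. DLC1 and TUSC3 stand out to the right on 8p.

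The 8q genes of DNA repair, cohesin and chromatin showed separate patterns. PRKDC, the catalytic subunit of the DNA-dependent protein kinase that joins broken DNA ends (chr8:47773108-47960183), had 598 CPM in CAL27 against 649 in CAL27/5FU and 607 in CAL27/OXA. It is the innermost 8q member, and its 3 libraries were nearly level, with log2 ratios of 0.12 and 0.02. RAD21, the cohesin subunit that closes the ring around sister chromatids (chr8:116845935-116874866), had 290 CPM in CAL27 against 140 in CAL27/5FU and 156 in CAL27/OXA. Both derivatives were far under CAL27 and close to each other, at log2 ratios of -1.05 (interval -1.1 to -1) and -0.89 (-0.94 to -0.85). ATAD2, a bromodomain ATPase of S-phase chromatin, showed the same order with 6664, 3475 and 4447 counts. CHD7, a chromatin remodeller, was at 40.3 CPM in CAL27 against 41.8 in CAL27/5FU and 21.7 in CAL27/OXA, so that CAL27/OXA alone was low (log2 ratio -0.89).

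Of the 8q genes of transcription, MYC, the growth-driving transcription factor for which gains of 8q are best known (chr8:127735434-127741434), was not past 1.5-fold in either derivative. It had 7779 counts in CAL27 against 5676 in CAL27/5FU and 7511 in CAL27/OXA, at log2 ratios of -0.46 (-0.51 to -0.41) and -0.24 (-0.29 to -0.19). It thus stood above the median of the 8q members in both. HSF1, the master factor of the heat-shock response near the outer end of 8q (chr8:144291591-144314722), had 114 CPM in CAL27 against 61.8 in CAL27/5FU and 55.7 in CAL27/OXA. Its log2 ratios were -0.88 and -1.03. TRPS1, a GATA-type repressor, was at 15.2, 10.9 and 7.41 CPM, and it was lower in CAL27/OXA alone by the 1.5-fold limit (-0.47 and -1.03). With FPKM and a pseudocount of 1, the TRPS1 ratio in CAL27/OXA was within the limit (-0.46). TCEA1, the elongation factor that restarts stalled RNA polymerase II, had 183 CPM in CAL27 against 195 in CAL27/5FU and 107 in CAL27/OXA. E2F5, a repressor of cell cycle genes, was the single 8q member above 1.5-fold in CAL27/5FU, with 4.65 CPM in CAL27 against 8.69 in CAL27/5FU and 3.42 in CAL27/OXA. Its ratios of 0.9 and -0.44 rest on 152 to 340 counts and have the wide intervals 0.64 to 1.17 and -0.76 to -0.12. It overlaps C8orf59 on the opposite strand, which had 1090, 893 and 742 counts.

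In translation and RNA processing, EIF3E, a subunit of translation initiation factor 3 (chr8:108201216-108435333), had 337 CPM in CAL27 against 185 in CAL27/5FU and 203 in CAL27/OXA. PUF60, a splicing factor of the poly-U binding kind, had 5843, 3419 and 3494 counts in the same order. Both genes were lower in both derivatives, at log2 ratios of -0.86 and -0.73 for EIF3E and -0.78 and -0.93 for PUF60. AGO2, the slicing Argonaute of the microRNA machinery, was at 22.3 CPM in CAL27 and 22 in CAL27/5FU, and at 12.2 in CAL27/OXA. It was near 0 in CAL27/5FU, where its sign changed with the scaling, and lower in CAL27/OXA (-0.87).

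Among the genes of protein turnover, FBXO32 showed the widest difference between the derivatives. FBXO32, the F-box protein atrogin-1 of a ubiquitin ligase (chr8:123497889-123541206), had 14588 counts in CAL27 against 9313 in CAL27/5FU and 919 in CAL27/OXA. It was 1.57-fold lower in CAL27/5FU and 18.1-fold lower in CAL27/OXA (log2 ratio -4.17, interval -4.28 to -4.08), and the first of these was no longer past 1.5-fold with total counts (-0.48). In CAL27/OXA the nearest members toward the centromere, ATAD2 and DERL1, were at -0.77 and -1.03, and the nearest toward the telomere, MTSS1, was at -4.82. DERL1, a channel component of ER-associated degradation, had 127 CPM in CAL27 against 65 in CAL27/5FU and 62.1 in CAL27/OXA. COPS5, the catalytic subunit of the COP9 signalosome, had 75.5, 56.8 and 41.5 CPM. LYPLA1, a thioesterase that removes palmitate from proteins, had 153, 161 and 102 CPM, and its ratio in CAL27/OXA, -0.59, was just past the limit and under it with total counts (-0.45).

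Of the signalling and cytoskeletal genes, MTSS1 departed most from the arm. MTSS1, a membrane-bending scaffold known as a metastasis suppressor candidate (chr8:124550790-124728429), had 994 counts in CAL27 against 222 in CAL27/5FU and 38 in CAL27/OXA. It was 4.47-fold lower in CAL27/5FU (interval -2.39 to -1.96 on the log2 scale) and 28.3-fold lower in CAL27/OXA (-5.41 to -4.43). It overlaps NDUFB9 on the opposite strand, which had 4681, 1945 and 2609 counts, and reads of the overlap cannot be assigned where strand was not used. YWHAZ, the 14-3-3 protein zeta that binds phosphorylated partners (chr8:100916525-100953388), was the most abundant 8q member with 1320 CPM in CAL27 against 613 in CAL27/5FU and 652 in CAL27/OXA. PTK2, the focal adhesion kinase FAK (chr8:140657900-141002216), had 146 CPM in CAL27 against 74.1 in CAL27/5FU and 67.8 in CAL27/OXA. YWHAZ was 2.15-fold and 2.02-fold lower and PTK2 1.96-fold and 2.15-fold lower in CAL27/5FU and CAL27/OXA. ASAP1, an ARF GTPase activator of podosomes, stayed under the limit at 64.1, 49.6 and 55.8 CPM (-0.37 and -0.2).

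The remaining 8q members act on membranes, lipids and polyamines. PTDSS1, which makes phosphatidylserine (chr8:96261715-96336995), had 185 CPM in CAL27 against 84 in CAL27/5FU and 73.6 in CAL27/OXA, and was 2.21-fold and 2.52-fold lower. TPD52, a coiled-coil protein of vesicle traffic often raised in tumours with gained 8q, had 174, 104 and 78.3 CPM. ATP6V1C1, a subunit of the proton pump of the lysosome, had 94.9, 49.5 and 57 CPM, and AZIN1, the inhibitor of antizyme that preserves ornithine decarboxylase, had 217, 129 and 141 CPM. All 4 were lower in both derivatives, but AZIN1 in both and TPD52 in CAL27/5FU were within 1.5-fold with total counts, at -0.58 and -0.49 for AZIN1 and -0.57 for TPD52. EBAG9, a regulator of secretion, was at 17.6, 9.91 and 12.2 CPM (-0.82 and -0.53), and ARMC1, a mitochondrial outer membrane protein, at 63.2, 50.5 and 37.6 CPM (-0.32 and -0.75).

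On 8p, the genes of telomeres and DNA structure were near their CAL27 level or above it. WRN, the RecQ helicase lost in Werner syndrome (chr8:31033801-31173769), had 574 counts in CAL27 against 669 in CAL27/5FU and 1001 in CAL27/OXA (0.21 and 0.61). PINX1, an inhibitor of telomerase, had 304, 380 and 528 counts (0.31 and 0.6). MCPH1, a damage-response protein of the microcephaly group, had 546, 767 and 813 counts (0.48 and 0.38). TNKS, the poly-ADP-ribose polymerase tankyrase, was 1.06-fold and 1.04-fold above CAL27, with 1721, 1831 and 2038 counts. HMBOX1, a telomere-binding homeobox protein, went the other way in CAL27/OXA alone, with 239, 250 and 165 counts (0.06 and -0.72). Of these 5 genes none was past 1.5-fold in CAL27/5FU. In CAL27/OXA PINX1 and WRN (40%) were higher, both just past the limit, and HMBOX1 (20%) was lower. Of all tested genes, 14.1% were higher and 17.0% lower in CAL27/OXA. The HMBOX1 ratio was within 1.5-fold with total counts (-0.58) and with FPKM and a pseudocount of 1 (-0.33) or 0.1 (-0.55).

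The 8p genes listed as tumour suppressor candidates and adhesion regulators held the largest rises among the members. DLC1, a focal adhesion protein whose loss is frequent in carcinomas (chr8:13083361-13604610), had 6 counts in CAL27 against 134 in CAL27/5FU and 483 in CAL27/OXA. Its log2 ratios of 4.1 and 5.75 start from 6 counts, and the counting intervals run from 3.31 to 5.95 and from 5.01 to 7.59. TUSC3, a subunit of the oligosaccharyltransferase and magnesium transporter (chr8:15417215-15766649), had 204, 487 and 867 counts and was 2.36-fold and 3.7-fold higher. MTUS1, a microtubule-associated protein gene between TUSC3 and PCM1, was lower instead, with 2564, 2151 and 1763 counts (-0.26 and -0.73). BIN3, a membrane-curving protein, had 583, 524 and 1010 counts (-0.16 and 0.6, the first of which changed sign with total counts), and it overlaps CCAR2 on the opposite strand, with 3866, 4193 and 5036 counts. PTK2B, the kinase PYK2 related to FAK, had 1049, 1290 and 948 counts (0.29 and -0.33), and PPP2R2A, a regulatory subunit of protein phosphatase 2A, had 2177, 2238 and 2901 (0.03 and 0.22).

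Of the 9 8p genes of lysosomes, lipids and secretion, 2 (22.2%) were higher, 2 (22.2%) lower and 5 neither in CAL27/OXA. In CAL27/5FU 1 (11.1%) was higher and none lower. Of all tested genes, 14.1% were higher and 17.0% lower in CAL27/OXA, and 15.2% were higher and 14.0% lower in CAL27/5FU. CTSB, the lysosomal protease cathepsin B (chr8:11842524-11869448), was the most abundant 8p member per length in CAL27, with 125 FPKM in CAL27 against 114 in CAL27/5FU and 75.6 in CAL27/OXA. It was lower in CAL27/OXA (-0.85) and at -0.3 in CAL27/5FU. ADAM9, a membrane metalloprotease that sheds ectodomains, and the innermost 8p member (chr8:38996869-39105144), had 184 CPM in CAL27 against 256 in CAL27/5FU and 295 in CAL27/OXA (0.48 and 0.68). CLU, the secreted chaperone clusterin, was at 827, 566 and 581 counts (-0.55 and -0.7), and its CAL27/OXA ratio was within 1.5-fold with total counts (-0.56). ASAH1, the acid ceramidase, had 2174, 3034 and 2205 counts (0.47 and -0.17), and FUT10, a fucosyltransferase, had 96, 173 and 175 counts (0.83 and 0.67). AGPAT5 of phospholipid synthesis (0.3 and 0.49), MTMR9, an inactive myotubularin (0.28 and 0.42), LEPROTL1, a receptor-sorting protein (0.28 and 0.05), and CLN8, an ER cargo receptor for lysosomal enzymes (-0.27 and 0.09), were within the limit in both.

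The 8p genes of RNA metabolism stayed close to CAL27 apart from ERI1, the exonuclease that trims histone mRNA ends, which had 614, 1195 and 1423 counts and was 1.93-fold and 2.03-fold higher. INTS10, an Integrator subunit (0.37 and 0.24), XPO7, an exportin (0.16 and -0.1), ELP3, the catalytic Elongator subunit (0.05 and 0.15), and GTF2E2, a subunit of TFIIE (0.08 and 0.07), were within the limit. Of the last 8 members, MFHAS1, a leucine-rich repeat GTPase, had 519, 995 and 1143 counts (0.93 and 0.95), XKR6, of the XK family, had 47, 97 and 115 (1.01 and 1.07), and SLC25A37, the mitochondrial iron importer mitoferrin-1, had 3318, 5987 and 5107 (0.84 and 0.43). MSRA, which repairs oxidised methionine, had 80, 118 and 158 counts (0.54 and 0.78). REEP4, which clears ER from chromosomes in mitosis, was the only 8p member below the limit in CAL27/5FU, with 2772, 1565 and 2631 counts (-0.83 and -0.26). PCM1 of the centriolar satellites (0.39 and 0.47), CHMP7 of the ESCRT machinery at the nuclear envelope (0.31 and 0.42) and KCTD9, a BTB-domain protein (-0.54 and -0.2), were within it. The low-count genes XKR6 and FUT10 were within 1.5-fold in both derivatives when FPKM with a pseudocount of 1 was used, at 0.38 and 0.39 for XKR6 and 0.49 and 0.37 for FUT10.

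Map order brought out a difference between the derivatives along 8q. The 5 members from TCEA1 and LYPLA1 to COPS5 had a median log2 ratio of 0.05 in CAL27/5FU and -0.77 in CAL27/OXA, and 0 and 5 of them were lower. In the 18 members from PTDSS1 outward the medians were -0.87 and -0.91, with 14 lower in CAL27/5FU and 15 in CAL27/OXA. Set directly against CAL27/5FU, CAL27/OXA was at -0.66 over the first 5 and at 0.01 over the 18 outer members.

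Stretches of tested 8q genes, members included, showed the same difference between the derivatives. Arms were split between HGSNAT and SPIDR, at the longest stretch without a protein-coding gene between ADAM9 and PRKDC, and medians were taken over windows of 11 neighbouring tested genes. The 7 genes from SPIDR to SNAI2 at the inner end of 8q had medians of 0.11 in CAL27/5FU and 0.02 in CAL27/OXA. From TCEA1 to SNX16, 75 genes had medians of 0 and -0.71. In CAL27/5FU 12 (16%) of them were lower and 12 (16%) higher, and in CAL27/OXA 44 (58.7%) were lower and 7 (9.33%) higher. Of all tested genes, 14.0% were lower and 15.2% higher in CAL27/5FU, and 17.0% were lower and 14.1% higher in CAL27/OXA. From WWP1 to PTDSS1, 34 genes had medians of -0.44 and -0.69, and from MTDH to HSF1, 148 genes had medians of -0.76 and -0.93, with 96 and 112 of them lower. These stretches were set after the ratios were seen, and they leave out some tested 8q genes, among them those beyond HSF1. The fall was not even along the arm. Between WWP1 and PTDSS1, the window centred on C8orf88 was at -0.08 in CAL27/5FU and -0.02 in CAL27/OXA.

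**Figure D3:**
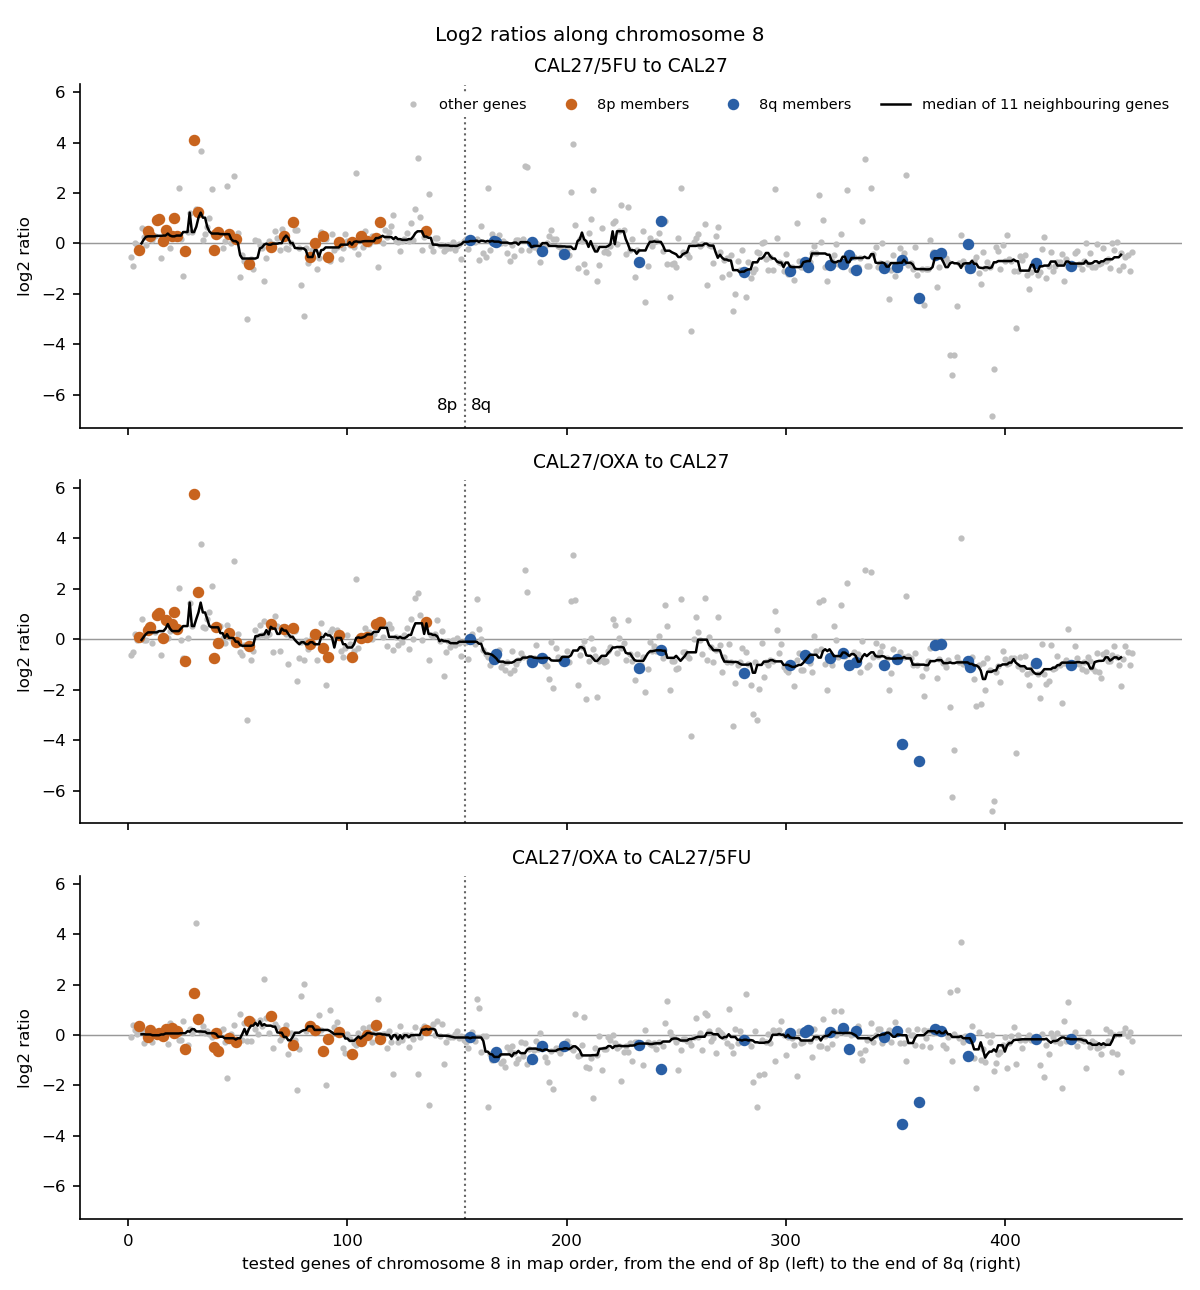
Log2 ratios of the 458 tested chromosome 8 genes in map order from the end of 8p to the end of 8q, with members in colour, the median of 11 neighbouring genes in black and the arm boundary dotted. On 8q the median line drops soon after the boundary in CAL27/OXA and only about midway along the arm in CAL27/5FU. Between the derivatives the difference sits mostly on the inner part of 8q, with a further dip near the outer end around PSCA and LYNX1.

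In CAL27/OXA, windows below 1.5-fold began with the one centred on ATP6V1H (start 53715557) and reached, with gaps, the one centred on ZNF517 (end 144811169), 238 of 300 8q windows (79.3%). In CAL27/5FU they began at DPY19L4 (start 94719703) and reached, with gaps, ARHGAP39 (end 144605816), 152 of 300 (50.7%). On 8p the same held for 7 of 148 windows in CAL27/5FU, all from FAM160B2 to POLR3D (chr8:22089159-22254600), and for none in CAL27/OXA. On all other chromosomes it held for 2.53% of windows in CAL27/5FU and 2.78% in CAL27/OXA. Between the derivatives, the longest run of low windows in CAL27/OXA went from RB1CC1 to TOX (chr8:52622456-59119208), with 19 windows and a lowest median of -0.87. A shorter run near the outer end of 8q, from PSCA to LYNX1 (chr8:142670308-142777810), had 4 windows and a lowest median of -0.9. The windows centred on LY6E and TOP1MT, also there, were both at -0.66. Neighbouring windows share 10 of their 11 genes, so windows are no independent observations.

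Apart from the members, 120 tested 8p genes and 279 tested 8q genes gave the arm comparison on the genes that the choice had left. The other 8q genes had a median log2 ratio of -0.45 in CAL27/5FU and -0.79 in CAL27/OXA, and the other 8p genes 0.05 and 0.08. The gap between arms was -0.5 and -0.87, smaller than over the members in both derivatives. Of the other 8q genes 126 (45.2%) were lower and 27 (9.68%) higher in CAL27/5FU, and 181 (64.9%) lower and 22 (7.89%) higher in CAL27/OXA. Of the other 8p genes 17 (14.2%) were lower and 18 (15%) higher in CAL27/5FU, and 16 (13.3%) lower and 20 (16.7%) higher in CAL27/OXA, which is near the shares over all tested genes. The 8p members thus stood above the other genes of their arm. With the members included, 31 tested 8p genes from AGPAT5 to PCM1 had medians of 0.39 and 0.49. From ASAH1 to ADAM9, 96 genes had 0.08 and 0.09. The edges of these stretches are members, and members chosen on their ratios are among the genes counted. The higher medians are therefore a description only.

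**Figure D4:**
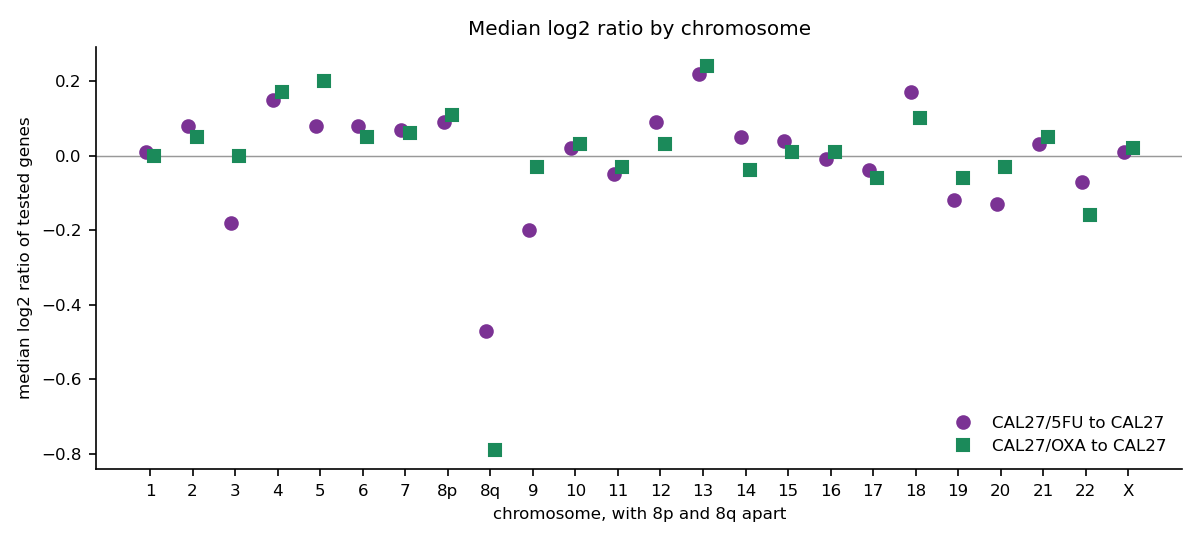
Median log2 ratio of all tested genes of each chromosome, with circles for CAL27/5FU and squares for CAL27/OXA, both against CAL27, and 8p and 8q drawn apart. 8q stands apart at -0.47 and -0.79, while 8p and the other chromosomes lie between -0.2 and 0.24. Only chromosome 8 was split by arm, so a shift of part of another chromosome may not show here.

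Chromosome 8 had the lowest median of all chromosomes in both derivatives, -0.27 and -0.54, and 8q carried it, with -0.47 and -0.79 over 305 genes against 0.09 and 0.11 over 153 genes of 8p. The next lowest were chromosome 9 in CAL27/5FU (-0.2) and chromosome 22 in CAL27/OXA (-0.16). In other regions of the genome, the neighbours of TYMS on chromosome 18 had a median of 2.66 in CAL27/5FU and 0.27 in CAL27/OXA, and the neighbours of GSK3B on chromosome 3 had -0.77 and 0.19. The 8q median was below 0 in both derivatives, but past 1.5-fold in CAL27/OXA only. The medians around TYMS and GSK3B, taken over just 9 and 10 neighbours, were past 1.5-fold in CAL27/5FU only. These differences were not tested.

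As a share of all counts, the 395 8q genes made up 2.69% in CAL27 against 1.63% in CAL27/5FU and 1.36% in CAL27/OXA. NDRG1, a stress-induced gene of 8q with 184650 counts in CAL27 against 8569 in CAL27/5FU and 9925 in CAL27/OXA, was 0.442% of the CAL27 counts by itself. Without it the shares were 2.25%, 1.6% and 1.34%. The 250 8p genes held 0.491%, 0.528% and 0.514%. The 8q ratio also went with the level: for genes with a mean of 10 to under 100, 100 to under 1000 and at least 1000 counts, the 8q medians were 0.04, -0.45 and -0.69 in CAL27/5FU and -0.49, -0.75 and -0.88 in CAL27/OXA. On 8p the same classes had 0.32, 0.12 and 0.05, and 0.05, 0.12 and 0.09. The part of the level in the arm gap was not tested.

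Lists of chromosome 8 genes by function or position, most of them not members, were chosen with earlier results of these data known. Some hold members, among them PUF60, HSF1, RAD21, ATAD2 and PRKDC. Their values therefore describe the arm and do not support it. Over all tested genes, 14.0% were lower in CAL27/5FU and 17.0% in CAL27/OXA. Of 12 outer 8q genes, 10 were lower in CAL27/5FU and 9 in CAL27/OXA, with medians of -0.87 and -1.02. CYC1, the cytochrome c1 of respiratory complex III, had 8099 counts in CAL27 against 4409 in CAL27/5FU and 4227 in CAL27/OXA (-0.88 and -1.13), and SQLE, the squalene epoxidase of cholesterol synthesis, had 14524, 2713 and 3479 (-2.43 and -2.25). GPAA1 of GPI-anchor transfer (-1.09 and -1.19), SCRIB, a polarity scaffold (-0.85 and -1.02), MAF1, the repressor of RNA polymerase III (-0.72 and -1.03), and SHARPIN of the linear ubiquitin ligase (-0.72 and -0.65) were lower in both. PLEC, the cytolinker plectin (-0.23 and -0.18), and EXOSC4 of the RNA exosome (-0.33 and -0.24) were within the limit in both, and BOP1 of ribosome assembly was at -0.92 and 0.41.

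Of 11 8q genes of replication and repair, 6 (54.5%) were lower in CAL27/5FU and 5 (45.5%) in CAL27/OXA, against 14.0% and 17.0% of all tested genes. MCM4, a subunit of the replicative helicase next to PRKDC, had 12167, 13197 and 16101 counts (0.11 and 0.21), and UBE2V2, a ubiquitin-conjugating enzyme variant beside it, had 0.06 and -0.18. Farther out, NSMCE2, a SUMO ligase (-1.03 and -0.87), was lower in both, RRM2B, a ribonucleotide reductase subunit (-0.7 and -0.55), and RECQL4, a RecQ helicase (-0.71 and -0.49), in CAL27/5FU, and NBN of the MRN complex (-0.43 and -0.66) and TERF1 of shelterin (-0.14 and -0.66) in CAL27/OXA. CCNE2, the cyclin E2 gene, had 696, 301 and 700 counts (-1.21 and -0.18). Of 9 LY6 genes of 8q, 5 were tested, and 4 were lower in CAL27/5FU and 5 in CAL27/OXA. LY6D, a keratinocyte surface protein, had 916, 27 and 10 counts (-5 and -6.43), PSCA had 390, 198 and 107 (-0.98 and -2.03), LY6E had 12967, 11650 and 6044 (-0.16 and -1.29) and LY6K had 1856, 1108 and 1267 (-0.75 and -0.74). LY6H, SLURP1, LYPD2 and GML had at most 2 counts in any library. LYNX1 had 215 counts in CAL27 and none in the derivatives, which against a floor of 3 counts per library is at least 72-fold lower in CAL27/5FU and at least 81.7-fold lower in CAL27/OXA. LYNX1 overlaps other annotated genes of its cluster, so its counts are uncertain.

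The inner 8p genes were level with CAL27: of 10, 8 were tested and none was past 1.5-fold in either derivative, with medians of -0.09 and -0.05. They include IKBKB, the IKK-beta kinase (-0.21 and -0.49), POLB, the base excision polymerase (-0.06 and -0.09), VDAC3 (-0.2 and -0.3), KAT6A, HOOK3, GOLGA7, AP3M2 and THAP1, and SLC20A2 and SMIM19 were listed at 0 counts in all libraries. Of 11 genes around FGFR1, 3 (27.3%) were higher and none lower in each derivative, with medians of 0.17 and 0.17. Over all tested genes, 15.2% were higher and 14.0% lower in CAL27/5FU, and 14.1% were higher and 17.0% lower in CAL27/OXA. FGFR1, the fibroblast growth factor receptor, had 14, 167 and 63 counts (3.4 and 1.85). Its ratios start from 14 counts and have the wide intervals 2.78 to 4.47 and 1.13 to 2.93. PLPP5 was at 0.79 and 0.79 and ERLIN2 at 0.7 and 0.45. ADAM9, a member, is given above, and NSD3, LSM1, BAG4, DDHD2, ASH2L, EIF4EBP1 and PROSC were within the limit. Of the 4 TRAIL receptor genes, TNFRSF10A, TNFRSF10B and TNFRSF10D were tested and none was past the limit (0.57 and 0.49, 0.21 and 0.54, -0.27 and -0.48), and TNFRSF10C had 5 to 15 counts. Of 9 WNT-related genes 5 were tested and 2 were lower in each derivative: FZD6, a Frizzled receptor of 8q, with 5105, 3106 and 3034 counts (-0.72 and -0.94), and WISP1, with 144, 2 and 0 counts, which gave a log2 ratio of -5.23 in CAL27/5FU (counting interval -9.24 to -4.3) and at least 54.7-fold lower counts in CAL27/OXA. FZD3 of 8p was at 0.39 and -0.33, SFRP1 had 10, 0 and 2 counts, DKK4, RSPO2 and SOX17 were listed at 0, and MYC and TNKS are given above.

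Complexes whose subunits are spread over the genome set 8q genes beside partners from other chromosomes. These 9 families were chosen after the values were seen. EIF3E and EIF3H, both of 8q, had log2 ratios of -0.86 and -1.06 in CAL27/5FU and -0.73 and -1.08 in CAL27/OXA, while the 11 subunits encoded on other chromosomes had medians of -0.07 and 0.06, and none of them was lower. RAD21 was at -1.05 and -0.89, against medians of -0.05 and 0.09 and minima of -0.18 and -0.12 for 8 other cohesin subunits and regulators. COPS5 was at -0.41 and -0.86, against -0.01 and 0.19 for 8 other COP9 signalosome subunits. Within the V1 sector of the vacuolar ATPase, ATP6V1C1 (-0.94 and -0.73) and ATP6V1H (-0.26 and -1.01) of 8q stood beside ATP6V1B2 of 8p (0.02 and 0.05) and 5 subunits of other chromosomes with medians of -0.23 and 0.05. Of these 5, ATP6V1A was lower in CAL27/5FU (-0.6), below ATP6V1H. Within Integrator, INTS8 of 8q (-0.57 and -0.89) stood beside INTS9 (-0.05 and -0.2) and INTS10 (0.37 and 0.24) of 8p.

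**Figure D5:**
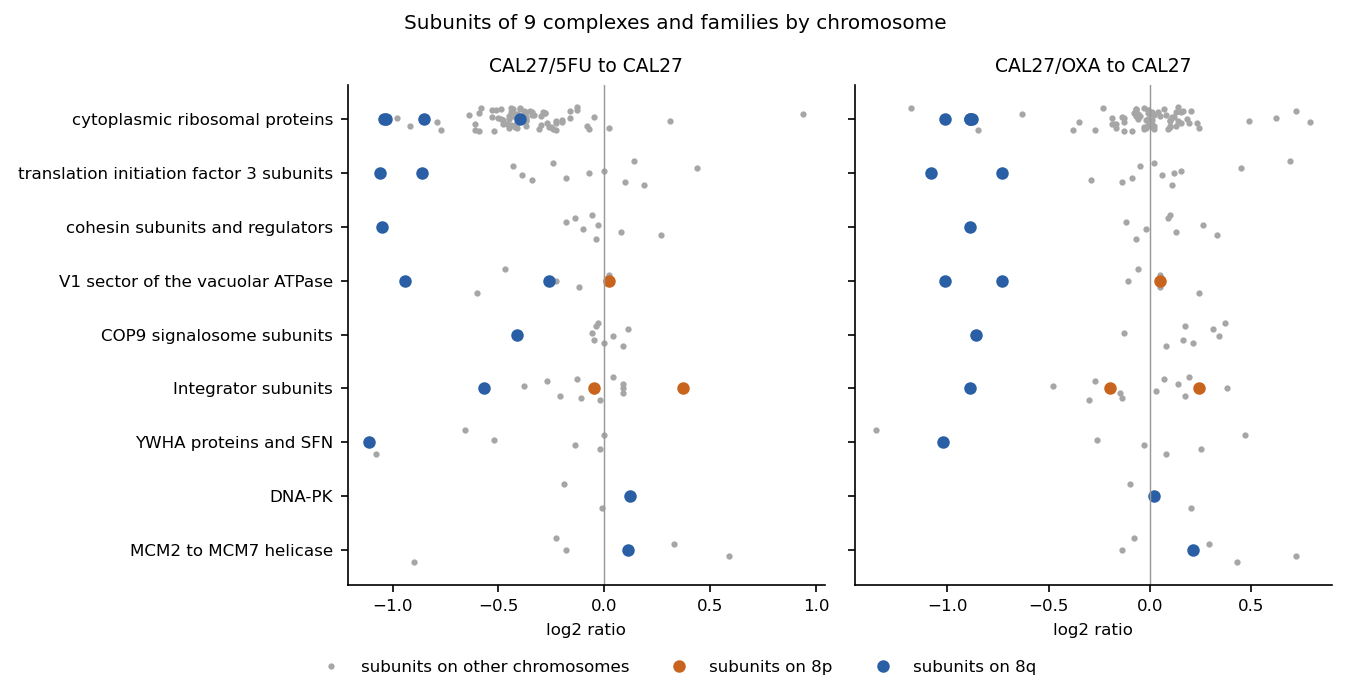
Log2 ratios to CAL27 of the subunits of 9 complexes and families, with 1 point per gene, grey for other chromosomes, orange for 8p and blue for 8q. The 8q subunits of initiation factor 3, cohesin, the COP9 signalosome and Integrator are the lowest points of their rows in both derivatives, and PRKDC and MCM4 of inner 8q are not.

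Ribosomal protein genes need both comparisons to be read. The 73 of other chromosomes had medians of -0.4 in CAL27/5FU and 0 in CAL27/OXA, and 10 and 3 of them were lower. Of all tested genes, 14.0% and 17.0% were lower. The lowest of the 73 ribosomal protein genes were RPL35A at -1.03 in CAL27/5FU and RPS7 at -1.18 in CAL27/OXA, the latter below each 8q ribosomal protein gene. RPL30, RPL7, RPL8 and RPS20 of 8q were at -1.03, -0.85, -1.04 and -0.4 in CAL27/5FU and at -0.89, -0.88, -1.01 and -0.89 in CAL27/OXA. These genes, like YWHAZ, have processed copies elsewhere in the genome that can share reads, so their values are uncertain. YWHAZ (-1.11 and -1.02) was beside medians of -0.33 and 0.03 for 6 other 14-3-3 genes, of which YWHAQ reached -1.35 in CAL27/OXA and SFN -1.08 in CAL27/5FU. PRKDC (0.12 and 0.02) was close to its partners XRCC5 and XRCC6, with medians of -0.1 and 0.05, and MCM4 was within the range of MCM2, MCM3, MCM5, MCM6 and MCM7.

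Single genes of both arms went far beyond the arm median. Outside the members, and looking at genes whose mean was 100 counts or more, the 3 largest falls on 8q in CAL27/5FU were LY6D, NDRG1 and CALB1, a calcium buffer (-3.46), and in CAL27/OXA they were LY6D, NAPRT of NAD synthesis (-4.53) and NDRG1. Rises on 8q were led by FER1L6 (2.73), the matrix metalloprotease MMP16 (2.19) and the synaptic gene RIMS2 (1.92) in CAL27/5FU, and by the splicing regulator KHDRBS3 (4.01), FER1L6 (1.71) and MMP16 (1.61) in CAL27/OXA. On 8p the palmitoyltransferase gene ZDHHC2 had 106, 1357 and 1688 counts (3.65 and 3.78) and the ERK phosphatase gene DUSP4 had 189, 1345 and 1150 (2.81 and 2.4). They were followed by CSGALNACT1 of chondroitin synthesis (2.28) in CAL27/5FU and by FAM167A (2.01) in CAL27/OXA. The falls on 8p were led by HR, a transcriptional corepressor of hair follicles, with 898, 113 and 109 counts (-2.98 and -3.21), followed by NEFM (-1.65) and PDLIM2 (-1.49) in CAL27/5FU and by EPHX2 (-1.81) and the hormone gene STC1 (-1.64) in CAL27/OXA.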

How the data were processed

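The authors aligned Illumina reads to GRCh38 with HISAT2 2.0.5 after CASAVA 1.8, per the submitters' processing notes; the tool that counted reads and its use of strand are not given in the sources used here. The deposited tables hold raw counts per gene symbol and the deposited FPKM values. In the 2 tables, 6 columns of per-sample values, 3 in each and numbered 2 in the deposited headers, match no sample label and were not used. They may be second libraries of the same lines, so a replicate test was not made here.

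Counts were scaled with TMM factors (0.932, 1.05 and 1.02 for CAL27, CAL27/5FU and CAL27/OXA; edgeR 4.0.16, R 4.3.3), and log2 ratios were taken with a prior count of 2 for genes averaging 10 counts or more. Intervals came from scipy 1.17.1. With 1 labelled library per line, no model was fitted. The calculation was tested on simulated data. Whether the lines' libraries came from separate cultures is not stated.

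Of 19220 symbols, 18813 were placed with GENCODE 29 (GRCh38). The members and gene lists were chosen with earlier results of these data known. All members were named, as were the 7 lists' genes and, for each arm and comparison with CAL27, the 3 top risers and 3 top fallers among non-members averaging 100 counts or more. The span of 13 members overlaps another counted gene. A listed cell type marker is not reported here.

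Alternatives were scaling by total counts, by the upper quartile or by size factors (DESeq2 1.42.0), filters of at least 1 count in any library and a mean of 100, prior counts of 0.5 and 5, FPKM with pseudocounts of 1 and 0.1, removal of GC and length trends (lowess, span 0.3, 3 iterations, statsmodels 0.14.6), 2-fold, and the whole interval past 1.5-fold.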

Additional observations from a re-analysis of the deposited data

Results flagged for a closer look

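PDLIM2, a PDZ and LIM domain gene of 8p beside the members REEP4 and BIN3, was past 1.5-fold in opposite directions in the derivatives. It had 421 counts in CAL27 against 149 in CAL27/5FU and 789 in CAL27/OXA, which gave log2 ratios of -1.49 in CAL27/5FU and 0.71 in CAL27/OXA. With 1 library per line, the difference was not tested. No member went past 1.5-fold in opposite directions with the main settings. E2F5 was at 0.9 in CAL27/5FU, and removal of GC and length trends moved its CAL27/OXA ratio from -0.44 to -0.6, past 1.5-fold.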

How the results depend on the processing

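No paired analysis was possible because 1 library per line carried a sample label, and for the same reason none was left out; the columns numbered 2, possibly second libraries, were not used. No value past 1.5-fold reversed its sign. The arm gap of the members moved by less than the order-statistic interval of its medians under all alternatives. These included, chosen after seeing the data, leaving out DLC1 or FBXO32 and MTSS1. That interval is a spread over genes picked on these ratios, not over replicates, so it is no test of the gap. In CAL27/5FU the gap was -1.04 with the main settings and with total counts, and -1.03 with a mean of 100 counts. DESeq2 size factors, the upper quartile and prior counts of 0.5 and 5 moved none of 39 summaries by arm, and of these total counts moved 8, FPKM with a pseudocount of 1 moved 15 and with 0.1 moved 7. Total counts put the median of all tested genes at 0.17 in CAL27/5FU and 0.14 in CAL27/OXA, and FPKM between 0.10 and 0.16, so these settings raise every ratio by about that much. Among the ratios of members and the summaries within 1.5-fold, AGO2, BIN3 and PPP2R2A in CAL27/5FU, LEPROTL1 and XPO7 in CAL27/OXA, and MFHAS1, PRKDC, TNKS and the median of the other 8p genes between the derivatives had a sign that changed with the scaling or with GC and length, as did 21 ratios of other named genes, among them LY6E, TERF1 and UBE2V2 in CAL27/5FU, PLEC in CAL27/OXA and POLB in both.

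In CAL27/5FU, total counts gave 11 8p members higher, and other genes with medians of 0.22 on 8p and -0.28 on 8q and 11 other 8p genes lower and 29 higher. FPKM with a pseudocount of 0.1 gave 11 8p members higher, medians of 0.19 and -0.28 for other 8p and 8q genes, and 10 other 8p genes lower. With a pseudocount of 1, other 8q genes had a median of -0.21 with 74 lower and 13 higher, and 9 other 8p genes were lower. Removal of GC and length trends gave 2 8p members lower. A minimum of 1 count in any library gave 28 other 8p genes lower and 33 higher and 45 other 8q genes higher, and a mean of 100 counts gave 10 higher on each arm. At 2-fold, 0 8p members were lower and 3 higher, 4 8q members lower and 0 higher, 8 other 8p genes lower, and 56 other 8q genes lower and 15 higher. With the whole interval past 1.5-fold, 9 other 8p genes were lower.

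In CAL27/OXA, total counts gave 2 8p members lower and medians of 0.22 and -0.66 for other 8p and 8q genes. FPKM with a pseudocount of 0.1 gave 2 8p members lower and medians of 0.21 and -0.64. With a pseudocount of 1, the 8q members had a median of -0.61, 1 8p member was lower and 7 higher, 8 other 8p genes were lower, and other 8q genes had a median of -0.51 with 6 higher. A minimum of 1 count gave 27 other 8p genes lower and 33 higher, and a mean of 100 counts gave 12 other 8p and 8 other 8q genes higher. At 2-fold, 0 8p members were lower and 4 higher, 9 8q members lower, 4 other 8p genes lower and 10 higher, and 91 other 8q genes lower. With the whole interval, 2 8p members were lower and 6 higher, 9 other 8p genes lower and 14 other 8q genes higher.

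In CAL27/OXA against CAL27/5FU, a minimum of 1 count gave 19 other 8p genes lower and 22 higher, and a mean of 100 counts gave 8 other 8q genes higher. FPKM with a pseudocount of 1 gave 1 8p member lower, 4 other 8p genes higher, and other 8q genes with a median of -0.19, 40 lower and 7 higher. At 2-fold, 0 8p members were lower and 1 higher, 3 8q members lower, 5 other 8p genes higher, and 36 other 8q genes lower and 9 higher. With the whole interval, 0 8p members were lower, 6 other 8p genes higher, and 44 other 8q genes lower and 9 higher. The cause of these moves was not tested, beyond the stricter thresholds and filters by their construction.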
